A study of Mus musculus with 6 samples.

Results

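The loci described here are 720 stretches of transcribed mouse genome that a transcript assembly recovered as a single exon and to which the files give no gene name. They were selected on level: every isoform of the locus had to be unnamed, at least 200 nt long and of 1 exon, and the summed FPKM had to reach 1 as the mean of the 2 libraries of either condition. FPKM is the fragment count of a transcript divided by its length and by the size of the library. Of 66968 loci in the table, 30144 were unnamed and 14308 of those had an isoform of at least 200 nt. In 13029 of them every isoform was a single exon, and 720 of these reached 1 FPKM. The other 12309 stayed under it and serve below, with 212 unnamed loci of several exons at 1 FPKM or more, only to show where the 720 differ.

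PolyA RNA came from TT-FHAgo2, a clonal line of mouse embryonic stem cells in which doxycycline controls the level of Argonaute 2 (Ago2), the protein that holds microRNAs and carries them to target transcripts. All cells were kept in 0.1 µg/mL doxycycline. For 1 group the drug was raised to 2.5 µg/mL for 48 h, which per the labels brings Ago2 to the wild-type level, and for the other it was withdrawn for 96 h. The 2 libraries of each group keep the strand and come from a preparation the labels name UTP, and nothing says that the 2 came from separate cultures, so every p-value measures only the spread between these libraries. A line of 1 clone also cannot show how other lines respond, and the spike-in libraries of the series were not analysed here.

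Mammalian genomes are transcribed well beyond their annotated genes. Promoters, those rich in CpG in particular, fire in both directions and give short upstream antisense RNAs, polymerases run on past the polyadenylation site of a gene, and enhancers and retrotransposons make transcripts of their own, which are abundant in embryonic stem cells. An assembler joins reads into a single exon wherever no read crosses a splice junction, so a locus of this kind can be an independent transcript, a piece of a longer one, an unspliced intron or the tail of a neighbouring gene. The assembly by itself does not tell these apart.

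The loci are on build NCBIM37, of which no genome was at hand, so their own sequences are not shown. Where such a locus lies within 300 nt of the assembled start of a named gene, the promoter of that gene can be shown instead. It is taken from RefSeq on GRCm38.p6, matched by symbol for the 5 genes shown, and the RefSeq start can differ from the assembled one. The 250 bases before the start are printed 5′ to 3′ on the strand of the gene for 5 genes whose neighbouring locus is described below. Nanog and Pou5f1 are transcription factors of the pluripotency network with an unnamed locus 128 nt and 269 nt upstream on their own strand. Ccnb1ip1 and Smg5 have one that starts 1 nt away on the opposite strand, and Slc25a39, a mitochondrial carrier, has one 249 nt upstream that was among the largest falls. Capitals mark matches to the letters TTTGCAT (most of the octamer that Oct4, the product of Pou5f1, binds), ACAATG (a core motif of Sox factors), GGGCGG (the GC box) and TATAAA (the TATA box), searched on both strands.
Nanog, chr6:122707315-122707564, plus strand: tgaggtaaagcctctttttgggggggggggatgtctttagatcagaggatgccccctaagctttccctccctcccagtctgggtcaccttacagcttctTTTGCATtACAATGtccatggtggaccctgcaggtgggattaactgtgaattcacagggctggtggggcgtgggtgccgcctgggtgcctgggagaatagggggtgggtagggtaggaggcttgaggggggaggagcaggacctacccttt
Pou5f1, chr17:35505782-35506031, plus strand: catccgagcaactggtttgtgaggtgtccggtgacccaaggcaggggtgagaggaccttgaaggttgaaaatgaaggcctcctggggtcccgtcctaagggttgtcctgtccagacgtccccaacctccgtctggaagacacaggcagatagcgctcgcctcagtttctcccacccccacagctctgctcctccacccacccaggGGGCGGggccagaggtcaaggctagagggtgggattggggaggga
Ccnb1ip1, chr14:50795729-50795978, minus strand: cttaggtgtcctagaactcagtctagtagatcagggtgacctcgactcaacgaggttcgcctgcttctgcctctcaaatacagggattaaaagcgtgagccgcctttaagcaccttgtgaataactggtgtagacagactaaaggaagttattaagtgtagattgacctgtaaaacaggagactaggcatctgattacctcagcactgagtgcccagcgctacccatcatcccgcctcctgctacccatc
Smg5, chr3:88336010-88336259, plus strand: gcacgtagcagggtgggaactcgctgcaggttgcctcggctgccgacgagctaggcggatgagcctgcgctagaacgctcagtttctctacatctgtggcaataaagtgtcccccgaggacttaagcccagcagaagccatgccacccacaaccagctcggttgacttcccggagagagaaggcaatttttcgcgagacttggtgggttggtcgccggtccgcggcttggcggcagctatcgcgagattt
Slc25a39, chr11:102407518-102407767, minus strand: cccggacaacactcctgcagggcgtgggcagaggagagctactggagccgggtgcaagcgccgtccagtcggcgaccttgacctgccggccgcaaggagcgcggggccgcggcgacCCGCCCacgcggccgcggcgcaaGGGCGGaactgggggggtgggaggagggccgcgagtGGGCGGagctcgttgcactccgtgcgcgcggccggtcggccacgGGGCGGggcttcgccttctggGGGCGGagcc

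Nanog held TTTGCAT and, after 1 base, ACAATG, at 151 to 145 and at 143 to 138 bases before the start. Pou5f1 held 1 GGGCGG and Slc25a39 held 5, of which 1 was on the other strand. Among 32851 promoter windows of 250 bases, TTTGCAT occurred in 4.13%, ACAATG in 10.7%, GGGCGG in 32.7% and TATAAA in 12.4%. Slc25a39 had 35 CpG and 77.2% G + C, Smg5 had 20 CpG, Pou5f1 had 8, Ccnb1ip1 had 7 and Nanog had 2. No match was found in the windows of Ccnb1ip1 and Smg5. Because the builds differ, the windows were not laid over the unnamed loci.

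In all 4 libraries the markers of embryonic stem cells were high, with the 8 genes listed summing to between 4182 and 4935 FPKM. All 6 primitive endoderm markers stayed under a mean of 1 FPKM. Of 10 mesenchymal markers 8 were under 1 FPKM as well, while Vim held a mean of 156 FPKM, and the list summed to 87.8 and 122 FPKM with and 147 and 278 FPKM without doxycycline. The 2 measured genes of the 2-cell-like state, Zscan4c and Zscan4f, summed to 5.47 and 4.27 FPKM with and 9.11 and 9.63 FPKM without. The part of either list in the results below was not tested. Ago2 itself measured 36.0 ± 1.00 FPKM (SD, n = 2) with and 28.7 ± 0.112 without doxycycline. Isoforms shorter than 200 nt were left out and made up 98.9% to 99.6% of each library's summed FPKM. The files number the libraries of a condition 0 and 1. FPKM of single-exon loci fell on whole fragments within 0.1 of a fragment in 100% of the low values of both libraries numbered 1. In those numbered 0 it was 33.9% and 34.3%. Chance gives 20% before any fit, but the FPKM of 1 fragment was fitted to the same values to raise this share. The share expected by chance after the fit was not measured. Fragments are therefore given for the libraries numbered 1 only, and how the values of the other pair were made is not given in the sources used here.

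The 720 loci were short. Their median length was 585 nt (quartiles 307 and 1564), against 3000 nt for the unnamed loci of several exons and 694 nt for the single-exon loci under 1 FPKM, and 175 of them were under 300 nt. All 720 had 1 isoform and the assembly's class for transcripts with no overlap with the reference on their strand. They lay on 21 chromosomes, 350 on the plus strand, 367 on the minus strand and 3 without a strand.

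The worth of a fragment depends on the length of the locus. In the 2 libraries numbered 1, a single fragment was worth 0.775 and 0.697 FPKM at 200 nt, 0.179 and 0.172 FPKM at 300 nt and 0.0262 and 0.0260 FPKM at 1000 nt. A locus of 200 nt thus reached the minimum with a few fragments. On average over these 2 libraries 60 of the 720 loci had under 3 fragments, 194 (26.9%) under 10 and 519 (72.1%) under 100. At least 1 of the 4 libraries listed 54 loci at 0.

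**Figure D1:**
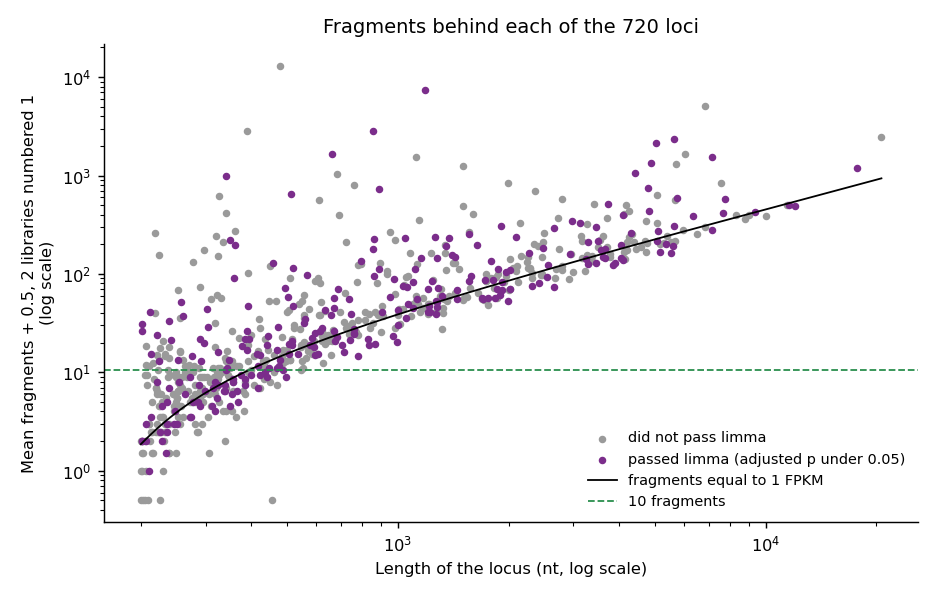
Each point is 1 of the 720 loci, with its length in nt on the x axis and its mean fragments in the 2 libraries numbered 1, plus 0.5, on the y axis (both log scales). Purple points passed limma, grey points did not, the black line is the number of fragments equal to 1 FPKM and the dashed line marks 10 fragments. Loci near 200 nt reach 1 FPKM with few fragments, and 194 loci lie under the dashed line.

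Together the 720 loci held 0.833% and 0.727% of the FPKM of transcripts of at least 200 nt with doxycycline and 0.773% and 0.753% without. The 10 highest loci made up between 44.9% and 53.1% of that share in each library. Over the 4 libraries 5 loci averaged at least 100 FPKM, 43 at least 10 FPKM, 465 between 1 and 10 FPKM, and 212 under 1 FPKM because they reached it in 1 condition only. Just inside the minimum stood chr3:65762196-65765971, at 1.002 FPKM with doxycycline, and chr17:22278940-22279144, at 1.003 FPKM without. Just outside stood chr2:165981274-165981557, at 0.9998 FPKM without, and chr5:106127681-106128876, at 0.9985 FPKM with doxycycline.

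The highest locus by far was chr11:108872955-108873432, 478 nt on the minus strand and 2860 nt downstream of RP23-31L20.1 on the other strand. It measured 911 and 886 FPKM with doxycycline and 672 and 981 FPKM without, from 12269 fragments or more in the libraries numbered 1, and its groups overlapped. The second, chr2:22600259-22600646 on the minus strand, overlapped in the same way, with 325 and 283 FPKM against 200 and 299 FPKM. Neither passed limma (adjusted p = 0.57 and 0.27).

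Other abundant loci did separate the conditions. At chr3:105837581-105837921, 341 nt on the plus strand, 178 and 167 FPKM with doxycycline stood against 111 and 92.3 FPKM without, a log2 change of -0.77 ± 0.12 (SE) with an adjusted p of 0.0074. Here and below, changes are of log2(FPKM + 0.5), without minus with doxycycline, so that changes at low values are understated, and adjusted p is from limma over all loci tested. A fall of 0.61 ± 0.09 on the log2 scale was measured at chr9:16834489-16835343 on the plus strand, from 101 and 109 FPKM to 67.4 and 69.5 FPKM (adjusted p = 0.0063). The only one of the 10 highest loci to pass as a rise was chr5:85680656-85681837, 1182 nt on the plus strand. It went from 114 and 122 FPKM to 172 and 196 FPKM, with 5704 and 9190 fragments in the libraries numbered 1, a change of 0.64 ± 0.10 (adjusted p = 0.0091). Without the doxycycline library numbered 0 its adjusted p was 0.052. The nearest named locus to it is a U1 gene 577 kb away.

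A fall at chr16:61377082-61377742 on the plus strand was smaller, from 79.8 and 89.4 FPKM to 64.5 and 56.7 FPKM (log2 change -0.48 ± 0.11, adjusted p = 0.022). It missed the threshold without the doxycycline library numbered 1 (adjusted p = 0.13), without the number 1 library off the drug (0.067) and on TPM (0.072). The remaining 4 of the 10 highest loci missed it too. The highest of them, chr18:90481217-90481435, had 194 and 153 against 136 and 99.1 FPKM, with no overlap (-0.57 ± 0.19, adjusted p = 0.065). It passed without the doxycycline library numbered 1 (adjusted p = 0.046), without the number 0 library off the drug (0.029), with equal medians (0.049) and with the file number as a block (0.0017). The others were chr8:44273115-44273338 next to Triml1 (77.8 and 67.3 against 55.7 and 69.4 FPKM), chr17:78073716-78074042 (92.4 and 80.3 against 97.6 and 98.3 FPKM) and chr17:36368200-36368541 (56.9 and 53.6 against 51.1 and 54.9 FPKM). Of these, chr17:78073716-78074042 was higher without doxycycline with no overlap (log2 change 0.18 ± 0.10, adjusted p = 0.19).

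Across the whole table limma called 40.7% of 14234 loci at an adjusted p under 0.05, 19.6% higher and 21.0% lower without doxycycline. Of the 720 loci 256 passed, 111 higher and 145 lower, but part of that count is fixed by the selection: a locus that reached 1 FPKM in 1 condition only was likely to differ. Of 181 loci that reached it only with doxycycline 75 were called, all lower, and of 176 that reached it only without the drug 82 were called, all higher. Of the 363 that reached it in both conditions, 29 rose (7.99%) and 70 fell (19.3%). The shares among all loci that reached it in both conditions were not counted, so this balance has no background to be set against.

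A minimum on the mean of all 4 libraries does not look at the difference, and 508 of the loci averaged at least 1 FPKM in this way. Of these 167 passed, 32.9%, against a background of 40.4% of all 13551 loci with such a mean, 40.6% of the named ones and 45.7% of the 175 unnamed loci of several exons. By direction 64 (12.6%) rose, beside 19.2% of all such loci, 19.4% of named and 22.3% of several-exon unnamed loci. A further 103 (20.3%) fell, beside 21.2%, 21.2% and 23.4%. The groups did not overlap in 320 of the 508 (63.0%), against 72.7% of all such loci. The median log2 change was -0.12 for the 508 and -0.05 over all loci tested.

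The balance of directions depended on scaling and on single libraries. On TPM, where each library is rescaled to the same sum and the median change of all loci moved from -0.05 to 0.10, 78 of the 508 were called higher and 62 lower, so that 55.7% of calls were rises, against 38.3% as deposited. Without the doxycycline library numbered 0, 62 of the 508 were called lower and 68 higher, and among all 720 loci the lower calls went from 145 to 95. Without the number 0 library off the drug, 41 of the 508 were called higher, and 68 of the 720 against 111. With no minimum on level, over 35756 loci, 58 of the 508 passed, and with a minimum of 5 FPKM 43 of 104.

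By length, the share of calls and the spread between libraries both varied. From 200 to 299 nt, 30 of 128 loci with a mean of at least 1 FPKM passed (23.4%). From 300 to 999 nt it was 66 of 191 (34.6%), and at 1000 nt or more 71 of 189 (37.6%). The median difference between the 2 libraries of a condition was 0.59 and 0.51 on the log2 scale in the shortest class and 0.13 and 0.18 in the longest. The median fragments per locus were 8.0 and 6.5 in the shortest class and 165 and 160 in the longest. With at least 10 fragments on average, 146 of 406 loci passed, 53 higher and 93 lower, and with fewer 21 of 102. The part of depth in the lower share of calls was not tested.

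The largest rises and falls are described among loci with a mean of at least 1 FPKM over the 4 libraries, though 7 of the 10 rises and 6 of the 10 falls reached that level in 1 condition only. The largest rise was chr16:89060620-89060907, 288 nt on the minus strand and 3046 nt downstream of AC102902.2. It was listed at 0 and 0.199 FPKM with doxycycline and at 4.29 and 2.48 FPKM without, which is 1 and 13 fragments in the libraries numbered 1 (log2 change 2.68 ± 0.29, adjusted p = 0.0036). A better covered rise was chr10:21762636-21763760, 1125 nt on the minus strand, from 0.336 and 0.273 FPKM to 3.19 and 2.24 FPKM, or 12 and 99 fragments (1.98 ± 0.19, adjusted p = 0.0027). Its nearest named locus, 4930444G20Rik, lies 22.6 kb away.

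Most abundant among the rises was the 202-nt locus chr13:113589389-113589590 on the plus strand, 1512 nt upstream of Ppap2a, a lipid phosphate phosphatase, on the same strand. It rose from 5.46 and 7.35 FPKM to 22.8 and 27.9 FPKM, from 10 to 42 fragments (1.91 ± 0.17, adjusted p = 0.0024). Ppap2a itself measured 24.6 and 20.4 FPKM with and 28.1 and 25.7 FPKM without doxycycline, and did not pass (adjusted p = 0.14).

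Long loci rose as well. The pair chr2:131605503-131609599 (4097 nt) and chr2:131609778-131614840 (5063 nt), neighbours on the minus strand, lies 30.9 kb or more from the nearest named locus. The first went from 0.810 and 0.856 FPKM to 3.94 and 3.48 FPKM, from 156 to 637 fragments (1.66 ± 0.13, adjusted p = 0.0020). The second went from 0.629 and 0.401 FPKM to 3.11 and 1.49 FPKM, from 91 to 340 fragments (1.41 ± 0.31, adjusted p = 0.021). In neither did the groups overlap, as in the other largest rises, which were picked for large changes that passed.

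A rise beside a gene that rose was measured at chrX:7832607-7833021, 415 nt on the minus strand, 1902 nt upstream of the glutamine transporter gene Slc38a5 and on the opposite strand. Its values were 0.213 and 0.641 FPKM with and 1.94 and 2.06 FPKM without doxycycline, 7 and 23 fragments (1.47 ± 0.25, adjusted p = 0.010). Slc38a5 rose from 1.62 ± 0.0414 to 4.07 ± 0.602 FPKM (SD, n = 2; adjusted p = 0.0044). The other rises of the 10 were under 300 nt. At chr8:54591442-54591716, 5331 nt from Aga, 8 and 20 fragments stood behind 0.781 and 1.81 against 5.62 and 4.30 FPKM. At chr12:22928113-22928319, inside the span of RP23-286D7.1, 0.842 and 0.650 FPKM stood against 3.46 and 2.36 FPKM, from 1 and 4 fragments.

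Of the 10 rises 2 lost their call when a library was left out. At chr3:68028998-68029235, with 1.80 and 0.359 against 4.32 and 4.03 FPKM, the adjusted p of 0.032 became 0.081 without the number 0 and 0.066 without the number 1 library off the drug. At chr8:97315237-97315437, with 0 and 0.754 against 2.46 and 1.36 FPKM from 1 and 2 fragments, the adjusted p of 0.0498 became 0.055 without the doxycycline library numbered 0, and 0.15 and 0.0503 without the number 0 and number 1 library off the drug. Its call was lost in 8 of 13 alternatives in all, also with a pseudocount of 0.1 (adjusted p = 0.085), no minimum (0.15), equal medians (0.053), sums per symbol (0.055) and limma without trend (0.057).

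**Figure D2:**
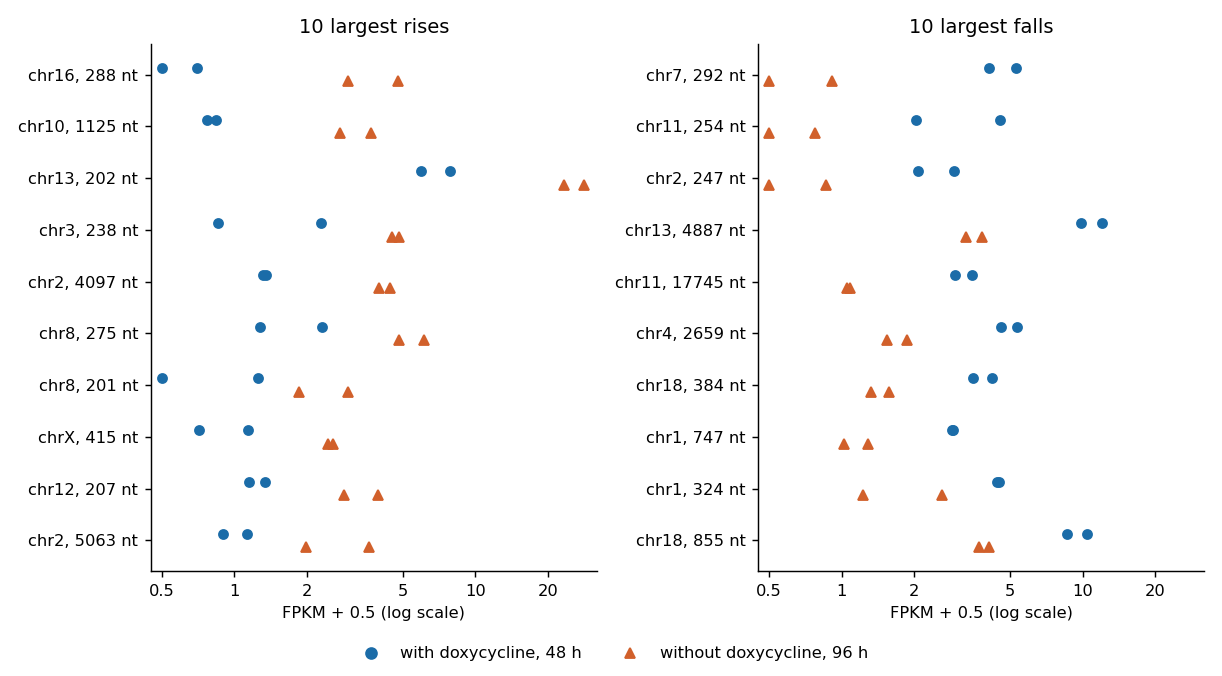
FPKM + 0.5 (x axis, log scale) of the 10 largest rises and the 10 largest falls, each named by chromosome and length on the y axis. Every point is 1 library, blue circles with doxycycline for 48 h and orange triangles without it for 96 h, and a point at 0.5 is listed at 0. The 2 conditions do not overlap in any of the 20 loci, which comes largely with picking large changes that passed. Groups did not overlap in 72.7% of all loci with a mean of at least 1 FPKM. The locus on chromosome 13 of 202 nt is the only rise above 20 FPKM.

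Among the falls, 3 short loci had at most 1 fragment left in the library numbered 1 off the drug. At chr7:113836246-113836537, 292 nt on the minus strand and 3003 nt upstream of the olfactory receptor gene Olfr694, 3.58 and 4.80 FPKM went to 0.411 and 0, from 25 fragments to 0 (-2.78 ± 0.32, adjusted p = 0.0039). Olfr694 was listed at 0 in every library. At chr11:102269509-102269762, 249 nt upstream of Slc25a39 on its strand, 1.54 and 4.02 FPKM went to 0 and 0.271 FPKM, from 14 fragments to 1 (-2.29 ± 0.43, adjusted p = 0.013). Slc25a39, whose promoter with its 5 GC boxes is printed above, measured 139 ± 3.67 FPKM with and 121 ± 1.55 FPKM without doxycycline (adjusted p = 0.11). The third, chr2:174883197-174883443, had 2.41 and 1.58 against 0.358 and 0 FPKM, from 5 fragments to 0.

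The next 3 falls were long. At chr13:19615402-19620288, 4887 nt on the minus strand and 63.3 kb from Epdr1, 11.5 and 9.31 FPKM went to 3.31 and 2.78 FPKM, from 2038 to 610 fragments (-1.62 ± 0.14, adjusted p = 0.0024). At chr11:19786215-19803959, a single exon of 17745 nt on the plus strand, 2.96 and 2.44 FPKM went to 0.587 and 0.552 FPKM, from 1956 to 444 fragments (-1.58 ± 0.15, adjusted p = 0.0026). It lies 20.2 kb from Spred2, an inhibitor of the Ras and ERK pathway, which measured 24.8 ± 0.388 and 25.8 ± 0.753 FPKM (adjusted p = 0.60). At chr4:16384093-16386751, 2659 nt on the minus strand, 4.83 and 4.08 FPKM went to 1.37 and 1.04 FPKM, from 470 to 120 fragments (-1.54 ± 0.15, adjusted p = 0.0028). It lies 5272 nt from RP23-415F19.3, which was listed at 0 in every library.

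The remaining falls lay in or across named loci. At chr18:32226990-32227373, antisense to Iws1, a partner of the elongation factor Spt6, 3.0 and 3.70 FPKM went to 1.07 and 0.824 FPKM, while Iws1 measured 20.9 ± 1.66 and 16.6 ± 1.29 FPKM (adjusted p = 0.056). At chr18:35713209-35714063, inside the assembled span of Matr3, a nuclear matrix protein, 9.94 and 8.13 FPKM went to 3.57 and 3.22 FPKM, from 255 to 102 fragments (-1.29 ± 0.13, adjusted p = 0.0028). Matr3 fell by 0.37 ± 0.10 on the log2 scale (adjusted p = 0.032). The last pair, chr1:63308795-63309541 and chr1:63305360-63305683, lies inside the span of Zdbf2 and is described below with its chain.

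Of the 3 longest loci 1 is the fall of 17745 nt above. The longest, chr3:41257333-41277977, is 20645 nt on the minus strand and begins 104 nt downstream of linc542. It measured 3.54 and 2.88 FPKM with and 2.82 and 2.41 FPKM without doxycycline, from 2687 and 2256 fragments (-0.25 ± 0.14, adjusted p = 0.21). The third, chr8:13996319-14008348, 12030 nt on the minus strand and 16.6 kb from Erich1, went from 0.587 and 0.590 FPKM to 1.14 and 1.21 FPKM (0.62 ± 0.15, adjusted p = 0.024). It reached 1 FPKM only without the drug, so its direction comes with the selection. With any of the 4 libraries left out, limma gave it an adjusted p between 0.061 and 0.073.

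Position was not used to choose the loci, though all 720 carry the class with no reference overlap on their strand. Within 5 kb of a named locus lay 404 of the 720, and 316 (43.9%) were further away, against 57.3% of the single-exon loci under 1 FPKM and 54.7% of the several-exon loci. The share inside a named locus on the same strand was higher, with 150 loci (20.8%) against 6.82% and 5.66%, a comparison of counts with no test. Every locus was counted, also where several lie in the span of the same gene, as at Rhbg. These named loci reach beyond the Ensembl transcripts they were assembled with. Set against the span of Ensembl-matched isoforms alone, 424 of the 720 (58.9%) were over 5 kb away. None lay inside on the same strand, which follows from the class that all 720 and both other groups carry. The other classes held 73 loci upstream on the same strand (10.1%), 69 upstream on the opposite strand (9.58%), 56 downstream on the same strand (7.78%), 32 downstream on the opposite strand, 22 overlapping on the opposite strand (3.06%) and 2 with no strand.

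**Figure D3:**
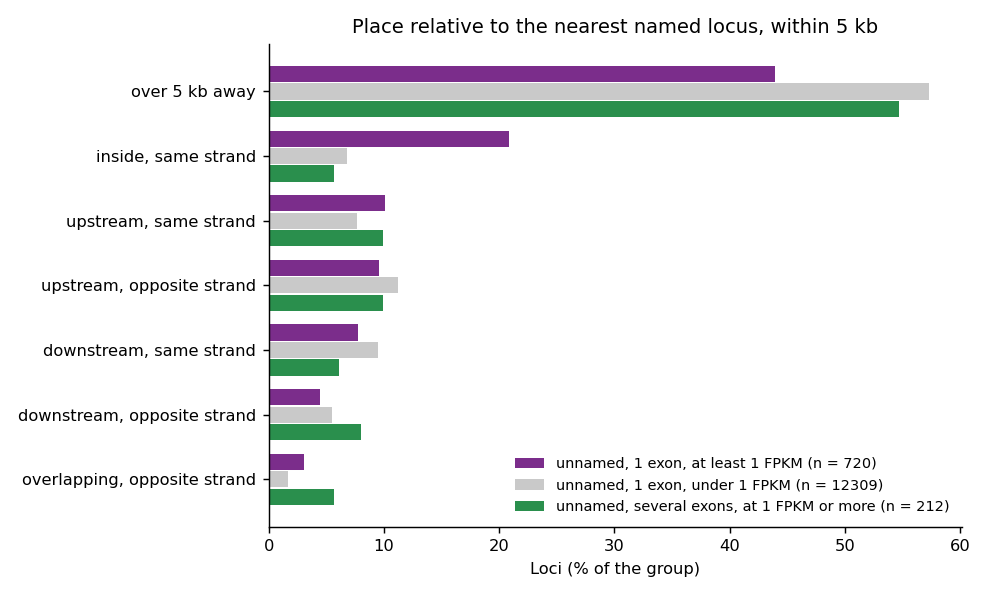
Share of loci (x axis, %) by their place relative to the nearest named locus within 5 kb (y axis), for the 720 unnamed single-exon loci at 1 FPKM or more, the 12309 under it and the 212 unnamed loci of several exons. The first group holds 20.8% inside a named locus on the same strand, against 6.82% and 5.66%, and 43.9% over 5 kb away, against 57.3% and 54.7%. Every locus is counted, also where several lie in the same span. Loci with no strand are not drawn.

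Within these classes the loci also sat closer to the gene than the loci under 1 FPKM did. Of 69 loci upstream on the opposite strand, the arrangement of a divergent promoter, 36 (52.2%) began within 300 nt of the gene, against 27.1% of 1382 loci under the minimum. Upstream on the same strand it was 29 of 73 (39.7%) against 18.4%, and downstream on the same strand 19 of 56 (33.9%) against 11.5%. Distances to a gene, here and throughout, are to the edge of its assembled span, which can reach beyond its Ensembl transcripts. These shares, too, were not tested.

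Divergent loci did not always change with their gene. At chr14:51424735-51424946 on the plus strand, 1 nt from the start of Ccnb1ip1, a ubiquitin ligase of meiotic recombination, the 212-nt locus fell from 39.4 and 30.7 FPKM to 20.2 and 14.8 FPKM (-0.99, adjusted p = 0.014, 53 and 28 fragments). Ccnb1ip1 measured 23.5 and 22.3 FPKM on average and did not pass (log2 change -0.07, adjusted p = 0.51). At chr3:88138539-88140181 on the minus strand, 1 nt from the start of Smg5, a factor of nonsense-mediated decay, the locus fell from 3.92 and 3.57 FPKM to 2.29 and 2.13 FPKM (-0.65, adjusted p = 0.010). Here the gene fell too, from a mean of 51.6 to 33.1 FPKM (-0.64, adjusted p = 0.0056). An antisense locus inside Rel, an NF-kappaB subunit, at chr11:23636852-23640357, rose from 0.859 and 0.795 FPKM to 2.36 and 1.98 FPKM (1.01, adjusted p = 0.0062), and Rel rose from a mean of 1.00 to 2.28 FPKM (0.89, adjusted p = 0.0075). The loci of this paragraph and of the next were picked after their values were seen, and those beside Rel, Pou2f2 and Srm reached 1 FPKM in 1 condition only, so that their direction comes with the selection.

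Among loci with a mean of at least 1 FPKM within 5 kb downstream on the same strand, 7 of 38 passed (18.4%). This compares with 40.4% of all loci with such a mean. Upstream it was 19.6% on the same and 24.4% on the opposite strand, and downstream on the opposite strand 25%. Inside spans, antisense to a gene and further away it was 31.6%, 42.9% and 40.9%. A low share was thus not particular to loci past the end of a gene. Within 1 kb downstream on the same strand, 24 loci had a tested neighbour (23 distinct genes), of which 5 loci passed, 4 of them with their neighbour and in its direction. Over the 24, the Spearman correlation of the changes was 0.82, as a description across loci that share libraries and are not replicates. Within 5 kb it was 0.45 over 48 loci and within 10 kb 0.46 over 58. Within 1 kb upstream it was 0.41 over 38 loci on the same strand and 0.22 over 41 on the opposite strand. The locus after Pou2f2, an octamer-binding factor of lymphocytes, at chr7:25872361-25873364, 81 nt from the gene, fell from 1.45 and 1.72 FPKM to 0.373 and 0.466 FPKM (-1.18, adjusted p = 0.0056), and Pou2f2 fell by 1.62 (adjusted p = 0.0027). After Srm, the spermidine synthase gene, chr4:147971452-147974748 fell from 1.22 and 1.14 FPKM to 0.452 and 0.611 FPKM (-0.71, adjusted p = 0.023), and Srm fell from a mean of 158 to 86.4 FPKM (-0.87, adjusted p = 0.0082). After Ppm1a, a protein phosphatase gene, the locus chr12:73898447-73900931, 67 nt away, went the other way. It rose from 1.50 and 1.26 FPKM to 2.27 and 2.12 FPKM (0.52, adjusted p = 0.030), while Ppm1a had a change of -0.14 (adjusted p = 0.32).

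The Spearman correlation was 0.52 over 56 loci upstream on the same strand, 0.35 over 133 loci inside a named span, 0.31 over 58 upstream and 0.22 over 22 downstream on the opposite strand, 0.50 over 21 antisense loci and 0.14 over 126 loci more than 5 kb from their nearest tested neighbour. The 133 loci inside spans lie in only 59 named loci, so pairs inside spans can share a neighbour and are not independent. The pairs counted next also include loci that reached 1 FPKM in 1 condition only, such as the one beside Slc38a5. The direction of such loci comes with the selection. Where both the unnamed locus and its neighbour passed limma, the signs matched in 19 of 20 pairs inside spans, 5 of 5 downstream and 7 of 8 upstream on the same strand, 4 of 4 upstream and 5 of 8 downstream on the opposite strand, 2 of 3 antisense, and 12 of 19 further away. The levels were low beside those of the genes, with a median ratio to the neighbour of 10.3% inside spans, 9.95% downstream, 5.83% upstream on the same strand and 4.85% upstream on the opposite strand.

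**Figure D4:**
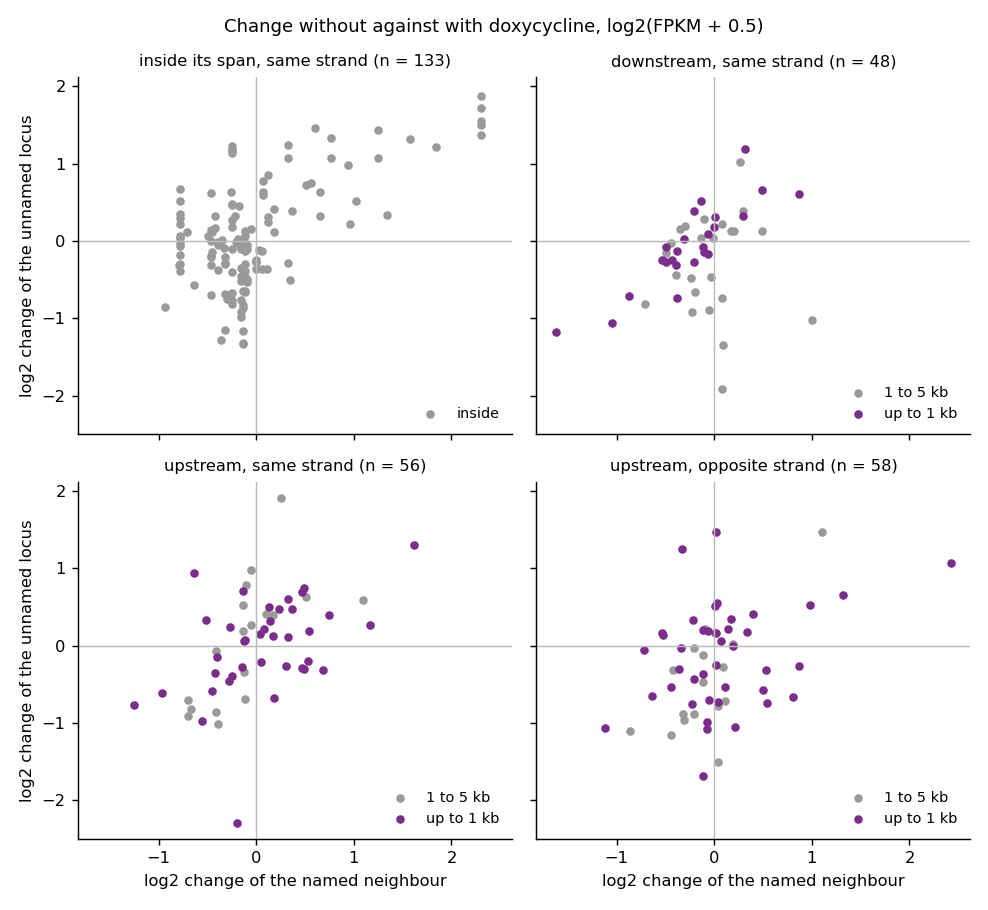
Log2 change of each unnamed locus (y axis) against that of its named neighbour (x axis), without minus with doxycycline on the log2(FPKM + 0.5) scale, in 4 relations of position. Purple points lie within 1 kb of the neighbour and grey points further away or inside it. The Spearman correlation of downstream loci was 0.45 over all 48 within 5 kb and 0.82 over the 24 within 1 kb. The column of points at the right of the first panel is the Clps chain.

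Many loci are pieces of one another's neighbourhood. Joining loci of the same strand that lie within 5 kb gave 571 chains, of which 495 were single loci and 76 held 225 loci. There were 13 chains of 5 or more, with 81 loci, and the longest held 12. Members of a chain may share 1 transcript and are not independent. With only the longest locus of each chain, 139 of 415 loci with a mean of at least 1 FPKM passed (33.5%).

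The chain that rose most lies inside the assembled span of Clps, the gene of pancreatic colipase, at chr17:28697879-28705572 on the minus strand. Its 5 loci had log2 changes from 1.37 to 1.88 and 4 passed, with 27 fragments in the library numbered 1 with doxycycline and 256 without. The largest of them by change, chr17:28704297-28705572, went from 0.0695 and 0.137 FPKM to 1.80 and 1.64 FPKM (adjusted p = 0.0024). None of the 5 reached 1 FPKM with doxycycline, so their direction comes with the selection. In the span of Gm9272, a predicted gene, at chr7:50447867-50456043 on the plus strand, 3 of 6 loci passed, with 328 and 748 fragments. The clearest was chr7:50454639-50456043, from 1.76 and 1.42 FPKM to 4.35 and 4.06 FPKM (1.18, adjusted p = 0.0037). Of these 6 loci 5 reached 1 FPKM with doxycycline as well. On chr12:19843506-19859968 on the minus strand, 3 of 5 loci rose, with 223 and 429 fragments, and none of the 5 reached 1 FPKM with doxycycline.

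Other chains fell. In the span of Zdbf2, an imprinted gene, at chr1:63305360-63312863 on the plus strand, all 5 loci fell, by between 0.64 and 1.33 on the log2 scale, with 267 and 95 fragments, and 4 of the 5 reached 1 FPKM only with doxycycline. The locus chr1:63308795-63309541 went from 2.37 and 2.39 FPKM to 0.779 and 0.525 FPKM (-1.33 ± 0.16, adjusted p = 0.0044). At chr1:63305360-63305683, 3.98 and 3.89 FPKM went to 2.1 and 0.722 FPKM (-1.32 ± 0.35, adjusted p = 0.035, and 0.056 on TPM). The Zdbf2 locus measured 23.5 ± 1.13 and 21.3 ± 0.531 FPKM (-0.13 ± 0.08, adjusted p = 0.25). On chr3:90981559-91004629, where AC127257.1 is the nearest named locus, 6 loci of 16317 nt in sum all had lower values. Of these 6 loci 5 passed, with 1315 and 514 fragments for the chain, and 5 reached 1 FPKM only with doxycycline. The last of them, chr3:91000892-91004629, went from 5.87 and 4.58 FPKM to 2.09 and 1.69 FPKM (-1.26, adjusted p = 0.0049).

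In other chains few or no loci passed. The most abundant chain, 6 loci on the plus strand at chr8:44269195-44275419, 3.5 to 8.6 kb upstream of the tripartite motif gene Triml1 and on the other strand, had between 26.2 and 72.6 FPKM per locus and condition and 3499 and 2708 fragments. All 6 had lower values without doxycycline, by 0.13 to 0.47 on the log2 scale, and none passed. On the other strand, within the assembled span of Triml1, 1 of 8 loci fell. Triml1 itself measured 93.4 ± 3.59 and 86.8 ± 12.1 FPKM (adjusted p = 0.49). The chain of 12 loci in the span of Rhbg, an ammonium transporter gene, had log2 changes from -0.39 to 0.67, with 1 rise. Of the 15 chains of 4 or more loci, 9 had every locus changed in the same sign, whether or not it passed. That count is partly fixed by the selection. In the Clps chain and the one at chr12:19843506-19859968 every locus reached 1 FPKM in 1 condition only. Most loci of the Zdbf2 chain and of the one at chr3:90981559-91004629 did so too. Loci of a chain may also share 1 transcript.

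**Figure D5:**
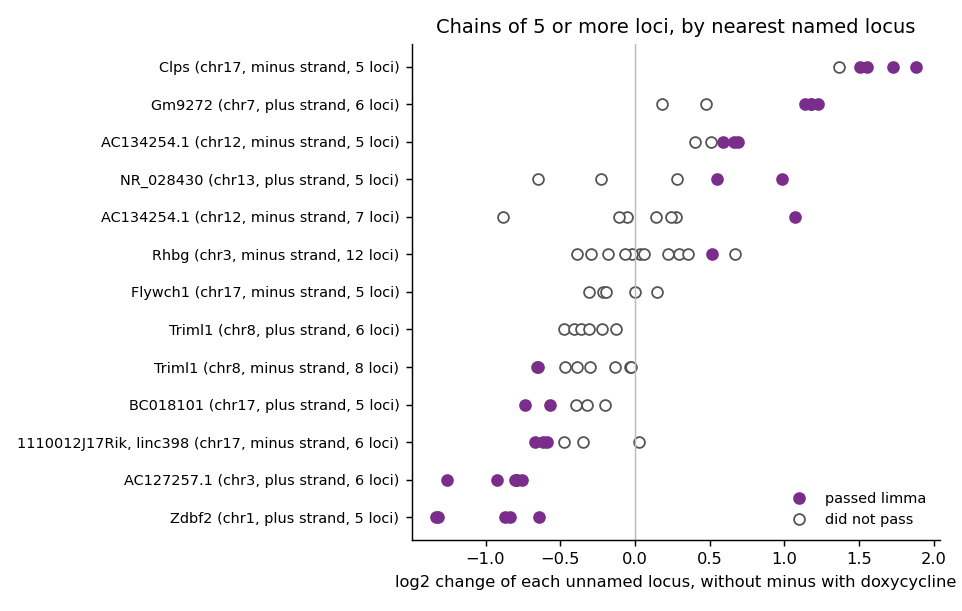
Log2 change (x axis, without minus with doxycycline) of every locus in the 13 chains of 5 or more, each chain named on the y axis by its nearest named locus, chromosome, strand and size. Filled purple points passed limma and open points did not. The Clps and Gm9272 chains lie wholly above 0, the Zdbf2 chain and the one near AC127257.1 wholly below it, and the Rhbg chain on both sides. The signs of the Clps chain, and most of those of the Zdbf2 and AC127257.1 chains, come with the selection.

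Genes of stem cell identity and microRNA clusters were searched for unnamed loci within 100 kb. Of 26 such genes in the files 10 had at least 1, with 13 loci in all. The clearest were beside the Lefty genes, antagonists of Nodal. The locus chr1:182821509-182823238, 1730 nt on the minus strand, starts 1 nt from the assembled start of Lefty2 and runs away from it. It rose from 0.483 and 0.735 FPKM to 1.97 and 1.66 FPKM, from 53 to 120 fragments (1.07 ± 0.18, adjusted p = 0.0096). Lefty2 rose from 25.3 ± 1.63 to 138 ± 13.8 FPKM (2.42 ± 0.11, adjusted p = 0.0013). Between the 2 genes, 9451 nt from Lefty1, chr1:182850529-182855691 rose from 0.270 and 0.311 FPKM to 1.15 and 1.11 FPKM, from 72 to 259 fragments (1.04 ± 0.16, adjusted p = 0.0073). Lefty1 rose from 34.2 ± 2.64 to 233 ± 4.90 FPKM. The mean of the second locus with doxycycline is under 1 FPKM, as is that of the first, so both were chosen through the condition in which they are high.

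Beside the pluripotency factors Nanog, Pou5f1 and Zfp42 no unnamed locus passed. At chr6:122655640-122657379, ending 128 nt before Nanog, 1.11 and 0.993 FPKM stood against 1.23 and 1.30 FPKM (0.18 ± 0.14, adjusted p = 0.32), and Nanog rose from 343 ± 40.1 to 499.5 ± 71.5 FPKM (0.54 ± 0.15, adjusted p = 0.036). Before Pou5f1, chr17:35642397-35642738 had 2.56 and 1.86 against 2.06 and 1.42 FPKM (adjusted p = 0.32). Past the end of Zfp42, 3 loci at 213, 994 and 1613 nt followed each other on its strand, and none passed. The nearest, chr8:44376121-44376734, had 3.73 and 4.07 against 3.52 and 3.82 FPKM (-0.08 ± 0.11), while Zfp42 fell by 0.49 ± 0.11 on the log2 scale (adjusted p = 0.019). The mean levels of these 5 loci were between 0.217% and 0.897% of those of their genes.

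Further from their genes, chr12:87651875-87652191, 49.9 kb from Esrrb, had 0.532 and 1.73 against 0.311 and 0.455 FPKM (adjusted p = 0.16), and 0.0085 without the doxycycline library numbered 0. At chr4:55459370-55459693, 80.3 kb from Klf4, 0.663 and 1.80 FPKM stood against 0.846 and 0.578 FPKM (adjusted p = 0.35), and 0.026 without that library. Near Klf5, 31.5 kb away, chr14:99746013-99749379 had 1.33 and 0.972 against 1.15 and 1.05 FPKM. Nearest to Fgf4, a growth factor gene, was chr7:152038187-152038386, 8905 nt away and listed at 2.01 FPKM in the doxycycline library numbered 0 and at 0 in the other 3. A second locus 74.9 kb from Fgf4, chr7:152126002-152127445, is named after its values were seen, as it was the only one of the 13 besides the Lefty pair to pass. It fell from 1.40 and 1.29 FPKM to 0.719 and 0.592 FPKM (-0.68 ± 0.15, adjusted p = 0.021), while Fgf4 rose by 0.83 ± 0.10 on the log2 scale (adjusted p = 0.0046). It reached 1 FPKM only with doxycycline, so its direction comes with the selection, and it lies 228 nt upstream of Ccnd1, a cyclin gene, which did not pass (adjusted p = 0.14).

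Near the miR-290 cluster, the main microRNA cluster of these cells, chr7:3181108-3181702 measured 4.25 and 4.25 against 4.40 and 4.40 FPKM (0.04 ± 0.09, adjusted p = 0.72). It lies 11.8 kb from AU018091, its nearest named locus, and 36.1 kb from the gene named mmu-mir-294. That gene rose, with 40.9 and 35.9 FPKM with and 69.8 and 56.8 FPKM without doxycycline (log2 change 0.71 ± 0.13, adjusted p = 0.013).

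Some loci owe their place to 1 library. At chr14:53833387-53833842, 456 nt on the plus strand, the doxycycline library numbered 0 had 18.2 FPKM and the other 3 were listed at 0, and 5 more loci, of 200 to 226 nt, had a value in 1 library only. Of these 6, 4 had it in the doxycycline library numbered 0. None passed limma, with adjusted p between 0.24 and 0.25.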

How the data were processed

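PolyA RNA of the TT-FHAgo2 line was measured in 4 libraries, 2 with and 2 without doxycycline, with the spike-in libraries not analysed here. The authors deposited FPKM per isoform and, per the submitters' processing notes, used build NCBIM37, TopHat2 2.0.9 and Cufflinks 2.1.1. They also deposited a Cuffmerge assembly that supplies exons and strands. The library total behind the FPKM is not given in the sources used here. File numbers could not be matched to the labels' replicates, so libraries were unpaired.

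FPKM of isoforms of at least 200 nt was summed per locus and tested as log2(FPKM + 0.5) by a two-sided limma 3.58.1 fit in R 4.3.3, with a trend and with degrees of freedom of 2 (residual) and 3.31 (prior). It ran over all 14234 loci, named and unnamed, whose mean reached 1 FPKM in a condition, with Benjamini-Hochberg adjustment at 0.05. Fragments were read from the steps of low FPKM values. TPM is FPKM scaled to an equal library sum. Named loci are the 10 highest, the 10 largest rises and falls that passed with the same direction in both numbers (mean of at least 1 FPKM), the 3 longest, 2 on each side of the minimum, and those nearest to 47 stem cell and microRNA genes within 100 kb. The members and lists were chosen with earlier results of these data known. Both procedures were tested on simulated data, for limma with normal noise on the log scale and without the fragment steps of short loci. That test therefore does not show how the fit performs on loci of few fragments. Python 3.11.15 with pandas 2.3.3 was used for the rest.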

Additional observations from a re-analysis of the deposited data

How the results depend on the processing

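Counts are of all 720 loci, then of the 508 with a mean of at least 1 FPKM, as passed (higher and lower); as reported these were 256 (111 and 145) and 167 (64 and 103). With no minimum on level they were 86 (42 and 44) and 58 (26 and 32), since more loci were tested, and with a minimum of 5 FPKM 43 (10 and 33) for both, since only 104 of the loci remained. On TPM 226 (132 and 94) and 140 (78 and 62) passed. Leaving out each library in turn gave 195 to 240 (68 to 108 and 95 to 151) and 122 to 151 (41 to 68 and 62 to 102), where the lone library is assumed to vary like the others. Pseudocounts of 0.1 and 1, isoforms of at least 500 nt, equal medians, sums per symbol and limma without trend kept every count within 1.5 times, as did the median change set to 0, chosen after seeing the data. At least 10 fragments and 1 locus per chain, also chosen then and run for the 508 only, gave 146 of 406 and 139 of 415.

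With the file number as a replicate block 350 and 232 passed. The differences between same-numbered libraries correlated at 0.33 over all loci tested and 0.10 over the 720, and the numbers are not tied to the labels, so libraries were not paired. With no minimum, 10 of the named loci that had passed did not. Within 1 kb and 10 kb of a named locus lay 298 and 474 of the 720, against 404 within 5 kb. The Spearman correlation of downstream loci and genes was 0.45 within 5 kb and 0.82 within 1 kb, and the cause was not tested. Depth limits the 194 loci under 10 fragments, where a few fragments set the value.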
